A study of Rattus norvegicus with 3 samples.

Results

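Glycolysis, lactate handling and the citric acid cycle were followed through 46 genes in poly(A) RNA of the rat pineal gland and of other tissues. The set was given as 47 gene symbols. Entries of the deposited table that carried one of these symbols, upper and lower case treated alike, were summed per symbol, and 46 of the 47 were found among 16629 genes and unnamed regions. Idh3b was matched to the spelling Idh3B, and Hk1 is not analysed here. All RNA came from adult Sprague-Dawley rats under a cycle of 14 h of light and 10 h of dark. The groups were pineal gland at zeitgeber time 7 (7 h after lights on, called day), pineal gland at zeitgeber time 19 (called night), and a day pool from zeitgeber time 7. The pool joined equal amounts of total RNA from 15 tissues: the central nervous system (cerebral cortex, hypothalamus, midbrain, cerebellum, hindbrain, spinal cord), the retina, endocrine glands (pituitary and adrenal gland), muscle (heart and skeletal muscle), and lung, liver, small intestine and kidney. No treatment other than the light cycle was named, and the sources used here do not give the number of animals behind a library.

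Each group had 1 library. The differences below therefore have no replicate check, no p-value was computed, and they compare these libraries rather than the conditions. Levels are FPKM (fragments counted per length of transcript and per depth of the library), so levels of different genes can be set side by side. Ratios are given as folds of FPKM, or as log2 ratios of FPKM + 1, which understate the change of genes with low values. Brackets after a fold hold its 95% interval from counting error alone, for a transcript of 1 kb. They do not cover differences between animals. A gene was compared where it reached 1 FPKM in at least 1 of the 2 libraries concerned.

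Glycolysis splits glucose into pyruvate in the cytosol. Hexokinase traps the sugar, phosphofructokinase sets the pace, and enolase and pyruvate kinase finish the path. Pyruvate is then reduced to lactate by lactate dehydrogenase, which also runs backwards, or enters mitochondria, where the pyruvate dehydrogenase complex turns it into acetyl-CoA for the citric acid cycle. Monocarboxylate carriers move lactate and pyruvate across the cell membrane. Many steps have isozymes that differ between organs, for example Eno3 and Pgam2 in muscle, Pklr in liver and Eno2 in neurons and endocrine cells. The pineal gland is a neuroendocrine gland of photoreceptor-like cells that makes melatonin at night.

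The promoters of Slc16a1 and Hk2 are shown because these were the 2 genes of the set at least 2-fold apart between night and day on the FPKM + 1 scale. Each run holds the 250 bases before the annotated start, 5′ to 3′ on the gene's strand, from RefSeq on build GRCr8. Capitals mark CACGTG (the E-box) and ACGTG (the core of the hypoxia response element, which lies inside every E-box). TGACGTCA (the cAMP response element) was searched as well. All 3 motifs were searched on both strands. The Slc16a1 run is chr2:194812410-194812659 on the plus strand and the Hk2 run is chr4:116841276-116841525 on the minus strand.
Slc16a1: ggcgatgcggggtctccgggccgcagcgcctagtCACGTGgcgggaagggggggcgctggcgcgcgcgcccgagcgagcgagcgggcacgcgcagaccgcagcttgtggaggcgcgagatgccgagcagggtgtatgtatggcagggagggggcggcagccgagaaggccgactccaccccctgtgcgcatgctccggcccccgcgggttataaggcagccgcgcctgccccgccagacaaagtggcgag
Hk2: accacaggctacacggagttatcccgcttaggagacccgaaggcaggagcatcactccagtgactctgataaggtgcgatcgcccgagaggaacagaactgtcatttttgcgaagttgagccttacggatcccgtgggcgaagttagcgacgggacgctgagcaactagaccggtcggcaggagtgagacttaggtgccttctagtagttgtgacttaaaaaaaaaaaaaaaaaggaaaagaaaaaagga
The Slc16a1 run held 1 E-box, near the far end of the window. The Hk2 run held none of the 3 motifs, which says only that these letters are not in this window. E-boxes stood in 5.59% of 33469 promoters of this length, the hypoxia core in 16.6% and the cAMP element in 1.59%. In the 21851 promoters of protein-coding genes the shares were 6.16%, 17.2% and 1.89%. Of the 46 genes, 41 matched the promoter table by gene identifier, with 44 promoters. Of these promoters 6 held an E-box, 16 the hypoxia core and 3 the cAMP element. The median GC content was 59.4% in these promoters and 54% in those of all protein-coding genes, and its part in these shares was not tested.

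Slc16a1 was higher and Hk2 lower by night than by day, while the other genes of the set that could be compared lay within 2-fold on the FPKM + 1 scale. In plain FPKM, Pdk4 (2.66-fold lower by night) and Pfkfb3 (2.06-fold higher) were also past 2-fold, at low levels and with counting intervals that include no change. Slc16a1 encodes the monocarboxylate carrier MCT1, which moves lactate, pyruvate and ketone bodies together with protons. It stood at 10.7 FPKM by day, 30.1 by night and 32.7 in the mixed tissues (chr2:199860341-199879856, rn4). Thus the night library lay 2.82-fold above the day library [2.18 to 3.69] and near the level of the mixed pool. Hk2 encodes hexokinase 2, an isozyme that binds to mitochondria. It was at 20.8 FPKM by day, 8.71 by night and 14.2 in the mixed tissues (chr4:116925725-116975211). The night library was 2.38-fold lower than the day library (ratio 0.42 [0.296 to 0.58]), and the mixed pool lay between both.

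Of the 46 genes, 39 passed the filter for night against day. Slc16a1 was the 1 gene at least 2-fold higher by night on the FPKM + 1 scale, against 4.18% of all genes compared, and Hk2 the 1 gene at least 2-fold lower, against 2.11%. At 1.5-fold the counts were 1 higher and 2 lower, where Pdk4 joined Hk2, against 8.18% and 11% of all genes. Counts this near to the background are not a result about the set. The median log2 ratio was -0.02 in the set and -0.11 over all genes compared. The 7 genes left out by the filter were Slc2a3, Slc2a4, Hk3, Pfkfb1, Gapdh, Pklr and Slc16a7, which read under 1 FPKM in both pineal libraries.

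**Figure D1:**
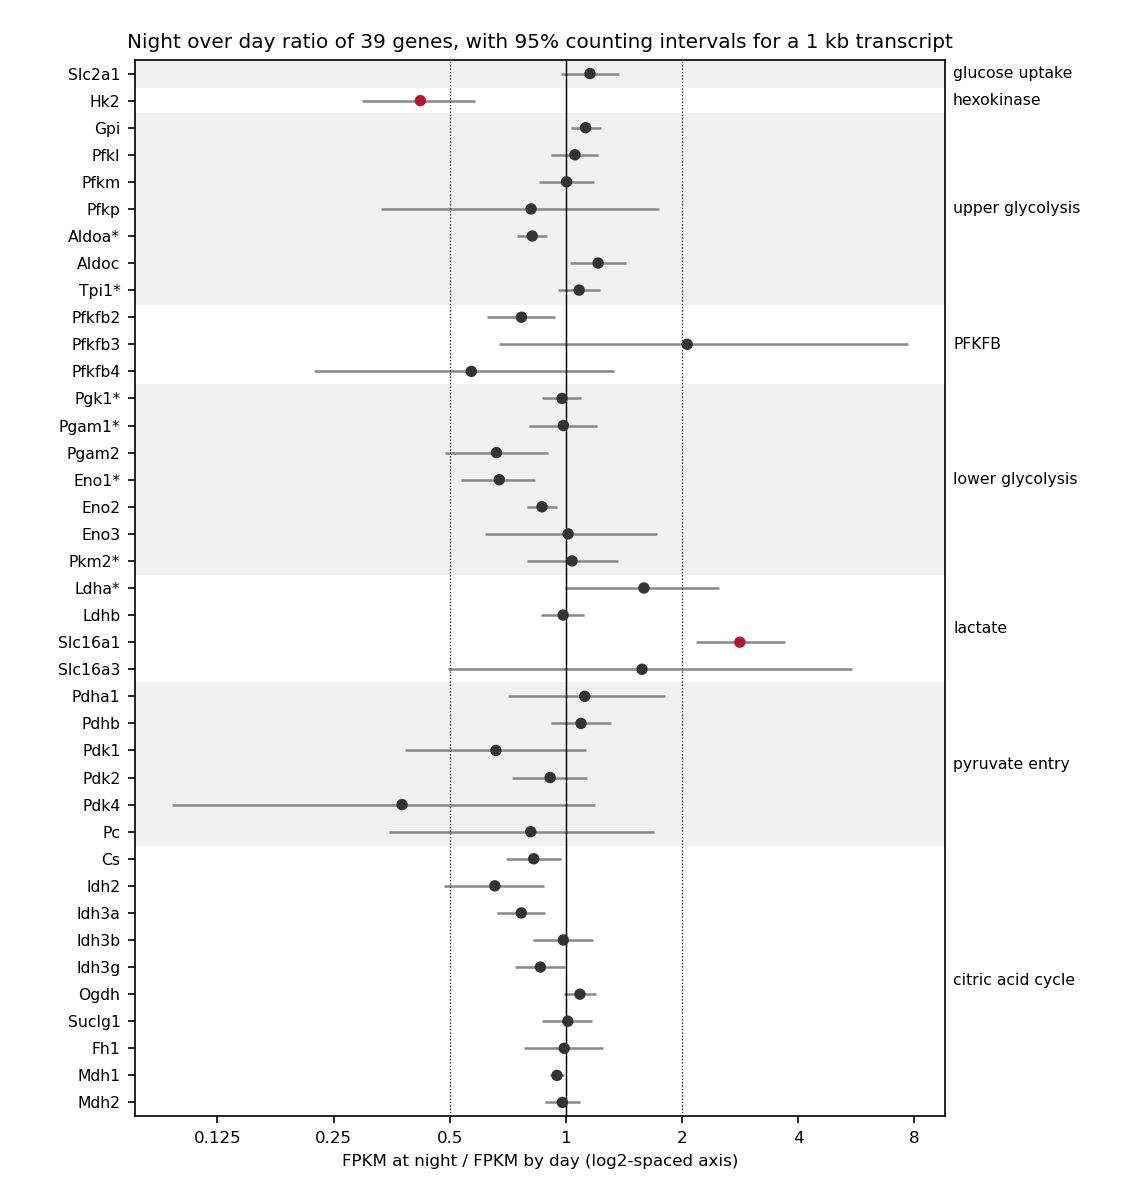
FPKM by night divided by FPKM by day for the 39 genes compared, on a log2-spaced axis, grouped by role. Points are ratios of 1 library to 1 library, bars are 95% counting intervals for a 1 kb transcript, dotted lines mark 2-fold, and an asterisk marks genes with 5 or more named copies. Red points are the genes at least 2-fold apart on FPKM + 1: Slc16a1 at 2.82 and Hk2 at 0.42.

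Most markers of other cells moved in the same direction as Hk2. In bulk tissue, fewer cells of a type and less RNA per cell cannot be told apart. All 5 measured astrocyte markers had lower values by night, with a summed level of 195 FPKM by day and 146 by night and a median log2 ratio of -0.43. Gfap went from 10.2 FPKM by day to 5.16 by night. Aldoc, a gene of the set that is abundant in astrocytes, went the other way, from 39.1 to 47.4 FPKM. Slc2a1, also found in glia, went from 37.5 to 43.2 FPKM, with a counting interval that includes no change. Of 6 fibroblast and meningeal markers 5 had lower values by night, and their sum went from 242 to 180.5 FPKM. None of these markers was at 0. Of the markers compared, 3 of 4 endothelial and 4 of 6 microglial ones were also lower by night. So were 6076 of 9826 genes overall in these 2 libraries, with a median log2 ratio of -0.11. The part of the markers in the Hk2 difference was not tested. Markers of skeletal muscle, a tissue rich in Hk2, summed to 0.79 FPKM by day and 1.19 by night, and Tnni2 and Myh4 were listed at 0 in both.

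Of the 3 glucose carriers in the set, 1 had a level above 1 FPKM in the gland. Slc2a1, the GLUT1 carrier of blood-brain barrier and glia, was at 37.5 FPKM by day, 43.2 by night and 25.8 in the mixed tissues (chr5:139690804-139719021). It was thus 1.45-fold [1.23 to 1.72] higher in the gland by day than in the mixed pool. Slc2a3, the neuronal carrier GLUT3, was at 0.25 FPKM by day, 0.093 by night and 12.2 in the mixed tissues. Slc2a4, the insulin-dependent carrier GLUT4 of muscle and fat, was at 0.254, 0.219 and 11.9 FPKM. Both read below the level of 3 fragments per kb in the gland (0.343 FPKM by day and 0.567 by night). Slc2a1 made up 98.7% of the summed FPKM of the 3 carriers by day (95% Wilson interval 96.8 to 99.5, counting error only), 99.3% by night and 51.7% in the mixed tissues. Hk3, the hexokinase of white blood cells, read 0.135, 0.0389 and 0.419 FPKM, and is uncertain at that level.

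**Figure D2:**
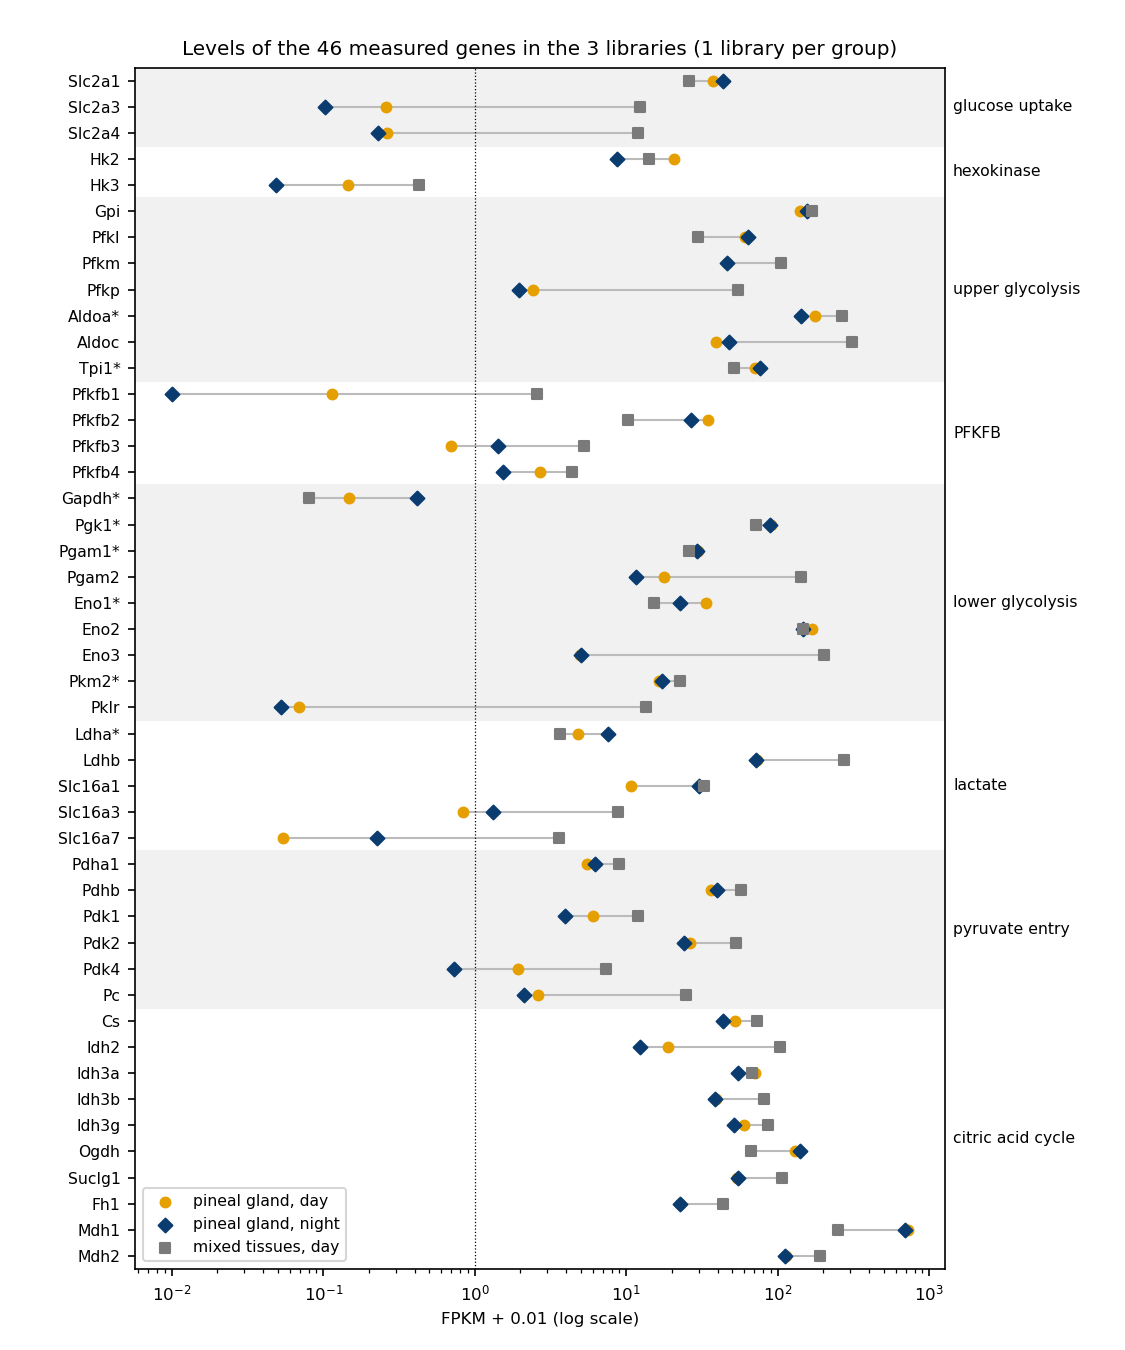
FPKM + 0.01 (log scale) of the 46 genes in the pineal gland by day (circles), by night (diamonds) and in the mixed tissues (squares), 1 library each, grouped by role. The dotted line marks 1 FPKM and an asterisk genes with 5 or more named copies. The day and night symbols lie close together for most genes, whereas Slc2a3, Slc2a4, Pfkp, Eno3 and Pklr sit far to the left of the mixed tissues.

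In upper glycolysis the day and night values of every gene lay within 1.5-fold of each other. Gpi, the isomerase that makes fructose 6-phosphate, was at 139 FPKM by day, 156 by night and 167 in the mixed tissues. Of the phosphofructokinase subunits, Pfkl (liver type) was at 60.6, 63.9 and 29.7 FPKM (chr20:11009359-11032511). Pfkm (muscle type) was at 45.9, 46.1 and 105 FPKM. The order of the 2 was thus reversed between the gland and the mixed pool. Pfkp, the platelet type, read 2.4 FPKM by day, 1.95 by night and 54.7 in the mixed tissues, 22.8-fold lower in the gland by day (ratio 0.0439 [0.0269 to 0.0678]). Pfkl held 55.6% of phosphofructokinase FPKM by day (Wilson interval 52.5 to 58.7) and 57.1% by night, but 15.6% in the mixed pool (14.0 to 17.4).

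The aldolases split fructose 1,6-bisphosphate. Aldoc, the brain isozyme that is abundant in astrocytes, was at 39.1 FPKM by day, 47.4 by night and 308 in the mixed tissues, 7.9-fold lower in the gland by day (ratio 0.127 [0.113 to 0.142]). Aldoa, the muscle and general isozyme, was at 175 FPKM by day, 143 by night and 265 in the mixed tissues, and held 81.8% of aldolase FPKM in the gland by day against 46.2% in the mixed pool. Its 2 entries were distributed differently. NM_012495 (chr1:185970658-185974615) was at 149, 113 and 96.7 FPKM, whereas NM_001177305, whose span is longer (chr1:185970658-185975486), was at 26.1, 30.1 and 168 FPKM. The shorter form led in the gland and the longer form in the mixed pool. Both share most of their span, so the split depends on how the authors' tool divided shared fragments. Tpi1, triosephosphate isomerase, was at 70.4, 76.2 and 51.5 FPKM.

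PFKFB enzymes make and break fructose 2,6-bisphosphate, the main activator of phosphofructokinase. The gland's form was Pfkfb2, the heart type, at 34.8 FPKM by day, 26.7 by night and 10.2 in the mixed tissues, 3.39-fold higher by day than in the mixed pool [2.7 to 4.31]. Pfkfb3, the inducible form, was at 0.688, 1.42 and 5.23 FPKM. Pfkfb4 was at 2.67, 1.52 and 4.38 FPKM. Pfkfb1, the liver form, read 0.104 FPKM by day, was listed at 0 by night and stood at 2.55 in the mixed tissues. Pfkfb2 therefore held 90.9% of the family's FPKM by day (Wilson interval 87.4 to 93.6) and 90.1% by night, against 45.7% in the mixed pool (39.2 to 52.4). The sum of Pfkfb2 hides entries that moved in opposite directions: NM_001033964 went from 17.4 FPKM by day to 0.0275 by night, whereas NM_001033965 went from 3.73 to 15.7. These 2 entries share the same span (chr13:43627327-43652660), and the third, NM_080477, was at 13.7 and 10.9 FPKM. The sum had a night over day ratio of 0.767 [0.624 to 0.94]. How fragments were divided among the forms can also affect it.

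In lower glycolysis the highest value in the gland was that of Eno2, the enolase of neurons and neuroendocrine cells, though Gapdh could not be read and Eno1, Pkm2, Pgk1 and Pgam1 are uncertain. It was at 169 FPKM by day, 146 by night and 146 in the mixed tissues (chr4:160891003-160897723). Eno3, the muscle enolase, was at 4.97, 5.03 and 203 FPKM, 40.8-fold lower in the gland by day (ratio 0.0245 [0.0175 to 0.0328]). Eno2 thus held 81.4% of enolase FPKM by day (Wilson interval 79.6 to 83.1), 84.1% by night and 40.1% in the mixed pool. Pgam2, the muscle phosphoglycerate mutase, was at 17.6 FPKM by day, 11.6 by night and 142 in the mixed tissues. It was 8.04-fold lower in the gland by day, yet not near 0. Pklr, the pyruvate kinase of liver and red blood cells, read 0.0588 FPKM in the day gland, 0.0428 by night and 13.4 in the mixed pool. Pgk1, phosphoglycerate kinase, was at 90.7, 88.6 and 71.7 FPKM, and its day and night values differed by less than counting error (ratio 0.977 [0.87 to 1.1]).

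The best known gene of the path could not be read. Gapdh, which encodes glyceraldehyde-3-phosphate dehydrogenase, was at 0.139 FPKM by day, 0.404 by night and 0.0707 in the mixed tissues, although every cell uses it. Gapdh and Hk3 were the 2 genes under 1 FPKM in all libraries, and their values are uncertain. The RefSeq list on build GRCr8 names 91 copies of Gapdh, most of them pseudogenes. It names 34 for Eno1, 31 for Ldha, 20 for Pkm2 (listed there as Pkm), 13 for Pgam1, 9 each for Aldoa and Pgk1 and 5 for Tpi1. Reads shared with such copies may be dropped or divided, so the levels of these 8 genes are uncertain. Eno1 was at 33.6, 22.6 and 15.1 FPKM, Ldha at 4.77, 7.6 and 3.62 FPKM, and Pkm2, the general pyruvate kinase, at 16.5, 17.1 and 22.7 FPKM. Pgam1 was at 29.6, 29.1 and 25.8 FPKM, but its entry spans only 322 bp (chr6:50613716-50614037).

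Ldhb, the heart type subunit of lactate dehydrogenase, was at 73.3 FPKM by day, 72.1 by night and 273 in the mixed tissues, 3.72-fold lower in the gland by day (ratio 0.269 [0.246 to 0.293]). Day and night did not differ beyond counting error (ratio 0.984 [0.864 to 1.12]). Ldha, the muscle type subunit, read lower than Ldhb in all 3 libraries, but the order of the subunits is uncertain because of the copies of Ldha. Of the carriers, Slc16a3 (MCT4, known for lactate export from glycolytic cells) was at 0.828, 1.3 and 8.84 FPKM. Slc16a7 (MCT2, a neuronal carrier of high affinity) was at 0.0445, 0.218 and 3.56 FPKM. Slc16a1 therefore held 92.4% of the FPKM of the 3 carriers by day (Wilson interval 85.6 to 96.2), 95.2% by night and 72.5% in the mixed pool.

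**Figure D3:**
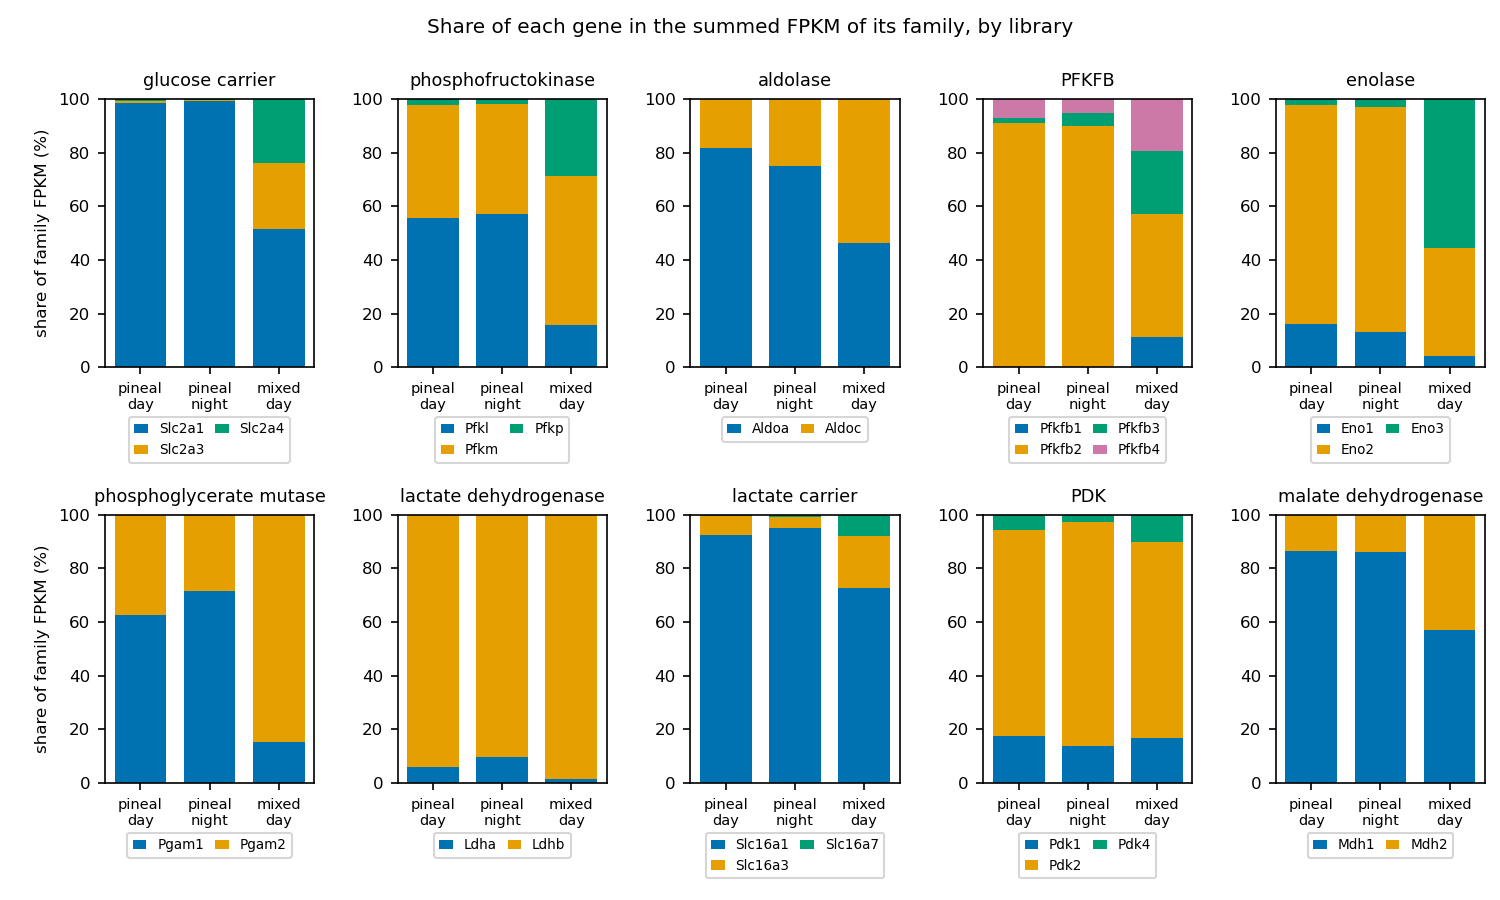
Share of each gene in the summed FPKM of its family (percent) in the pineal gland by day and night and in the mixed tissues, 1 library each. The pineal bars resemble each other, and differ from the mixed tissues in Slc2a1 (98.7% against 51.7% by day), Pfkl (55.6% against 15.6%), Pfkfb2 (90.9% against 45.7%) and Eno2 (81.4% against 40.1%). Shares that include Eno1, Ldha, Aldoa or Pgam1 are uncertain.

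Pyruvate enters mitochondrial metabolism through pyruvate dehydrogenase, whose E1 subunits are encoded by Pdha1 and Pdhb, and through pyruvate carboxylase. Pdha1 was at 5.52 FPKM by day, 6.18 by night and 8.91 in the mixed tissues, and Pdhb at 36.0, 39.5 and 57.1 FPKM. Pc, the carboxylase that refills the cycle with oxaloacetate, was at 2.59, 2.1 and 24.6 FPKM, 9.52-fold lower in the gland by day (ratio 0.105 [0.0663 to 0.164]). The 3 kinases of the set that switch the dehydrogenase off were lower in the gland than in the mixed pool, whereas Pdk3, a further such kinase, was at 8.59 FPKM by day, 8.01 by night and 8.91 in the pool. Pdk2 was at 26.2, 23.8 and 52.8 FPKM, Pdk1, a gene induced by low oxygen in many cells, at 6.0, 3.95 and 11.99 FPKM, and Pdk4, a gene of fasting, at 1.92, 0.721 and 7.38 FPKM. Pdk4 was 2.66-fold lower by night than by day in FPKM, but its counting interval includes no change (ratio 0.376 [0.0953 to 1.19]).

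In the citric acid cycle the gland stood out by Mdh1, the cytosolic malate dehydrogenase of the malate-aspartate shuttle. It was at 725 FPKM by day, 687 by night and 251 in the mixed tissues (chr14:102259131-102273788), 2.89-fold higher in the gland by day than in the mixed pool [2.75 to 3.03]. Mdh1 ranked 14 of 16629 by level in the day library, 13 by night and 82 in the mixed tissues. Its mitochondrial partner Mdh2 was at 114, 111 and 188 FPKM, so that Mdh1 held 86.4% of malate dehydrogenase FPKM by day (Wilson interval 85.6 to 87.2) and 57.1% in the mixed pool (55.6 to 58.6). Ogdh, the E1 subunit of 2-oxoglutarate dehydrogenase, was at 129 FPKM by day, 141 by night and 66.9 in the mixed tissues, 1.94-fold higher in the gland by day [1.76 to 2.14].

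The other genes of the cycle were below the mixed tissues, apart from Idh3a, which was near them. Cs, citrate synthase, was at 52.4 FPKM by day, 43.3 by night and 73.0 in the mixed tissues. The subunits of the NAD-dependent isocitrate dehydrogenase were at 71.1, 54.5 and 67.3 FPKM for Idh3a, 39.2, 38.6 and 80.6 for Idh3b and 60.2, 51.7 and 86.7 for Idh3g. The gland thus had its highest subunit value in Idh3a, and the mixed pool in Idh3g. Idh2, the NADP-dependent mitochondrial isozyme, was at 18.8, 12.3 and 103 FPKM, 5.51-fold lower in the gland by day (ratio 0.182 [0.153 to 0.214]). Suclg1, of succinyl-CoA ligase, was at 54.0, 54.7 and 106 FPKM and Fh1, fumarate hydratase, at 22.7, 22.5 and 43.4 FPKM. By night 8 of the 10 cycle genes had lower values than by day, all within 1.5-fold on FPKM + 1. Over all genes 6076 of 9826 had lower values. The median log2 ratio was -0.05 for the cycle genes, where all genes had -0.11. Counting intervals lay below 1 for Cs, Idh2 (ratio 0.655 [0.484 to 0.879]), Idh3a, Idh3g and Mdh1, and included no change for the other cycle genes.

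Summed over the set, the 46 genes held 1.17% of all FPKM in the day library, 1.09% by night and 1.32% in the mixed tissues. The citric acid cycle made up 52.6% of the set's FPKM by day, 52.0% by night and 32.7% in the mixed pool. With Mdh1 left out of both sums, the shares were 32.6%, 32.0% and 27.1%, so the libraries lay closer together without that gene. Upper glycolysis made up 21.8% by day and 30.1% in the mixed tissues, lower glycolysis 14.8% and 19.6%, and lactate genes 3.66% and 9.87%. The 8 genes with 5 or more named copies, Gapdh among them, all belong to glycolysis or lactate, and Hk1 is not analysed. These shares, and with them that of the cycle, are therefore uncertain.

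Against the mixed tissues, 44 of the 46 genes passed the filter, all but Hk3 and Gapdh. On the FPKM + 1 scale, which all counts against the mixed tissues use, 0 genes of the set exceeded the pool by 4-fold in the day gland, against 2.29% of all genes compared, and 11 were at least 4-fold lower, against 13.2%. The 11 were Aldoc, Eno3, Idh2, Pc, Pfkp, Pgam2, Pklr, Slc16a3, Slc16a7, Slc2a3 and Slc2a4. At 2-fold, 4 were higher (8.32% of all genes) and 18 lower (28.9%). The 4 higher ones were Pfkfb2, Mdh1, Eno1 and Pfkl, with FPKM ratios of 3.39, 2.89, 2.22 and 2.04. The median log2 ratio was -0.81 in the set and -0.27 over all genes. By day 7 of the 44 passed the filter only through the mixed library and so had to be lower: Slc2a3, Slc2a4, Pfkfb1, Pfkfb3, Pklr, Slc16a3 and Slc16a7.

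Night against the same mixed library, which shares that library with the day comparison, gave 0 genes at least 4-fold higher (3.09% of all genes) and 11 lower (14.4%). Pdk4 was in this list and Slc16a7 was not. At 2-fold the counts were 4 higher (8.99%) and 20 lower (31.2%). The median was -0.90 in the set and -0.36 over all genes. Here 6 genes passed only through the mixed library. Slc16a1 had a log2 ratio of -1.53 to the mixed tissues by day and -0.12 by night.

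**Figure D4:**
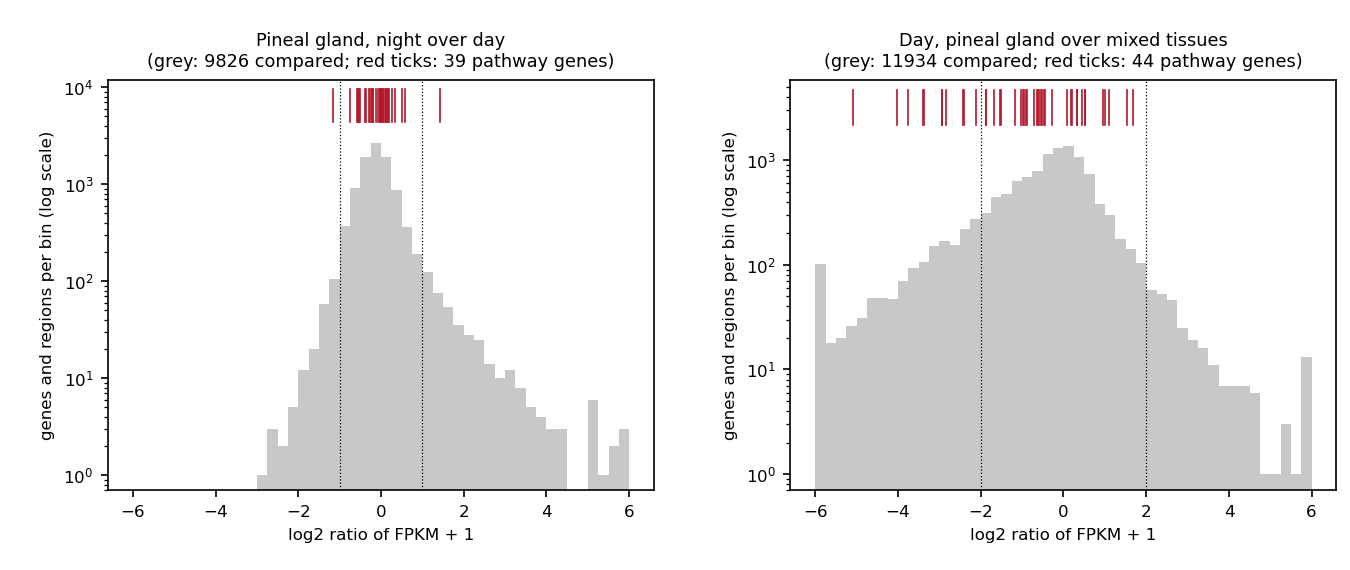
Number of genes and regions per bin of the log2 ratio of FPKM + 1 (log scale), for night over day (9826 compared) and for the day gland over the mixed tissues (11934 compared). Ratios beyond 6 in either direction are counted in the end bins. Red ticks are the 39 and 44 genes of the set, and dotted lines mark 2-fold (left) and 4-fold (right). On the left 37 of the 39 ticks lie between the lines, and on the right 33 of the 44 do and 11 lie below.

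Markers of the pooled organs moved with several of these genes. The 6 skeletal muscle markers summed to 4225 FPKM in the mixed tissues and 0.79 in the gland by day, beside Eno3, Pgam2, Pfkm and Slc2a4. The 4 liver markers summed to 2453 and 6.41 FPKM and the 4 kidney markers to 134 and 0.0195, beside Pklr and Pc, and Alb and Fgb were listed at 0 in both pineal libraries. The 5 astrocyte markers summed to 699 and 195 FPKM, beside Aldoc, and 3 of them were at least 4-fold lower in the gland. Slc1a2, however, was near the pool (72.6 FPKM by day against 74.2) and Gja1 above it (81.4 against 70.7). Of the neuronal markers Tubb3, Nefl and Nefm were under 1 FPKM in the gland and at 108, 154 and 143 in the pool, beside Slc2a3 and Pfkp, whereas Syt1 was higher in the gland. Their part in these differences was not tested. Pinealocyte markers were higher in the gland by at least 4-fold for 7 of 8 by day.

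Other genes of the same paths came from lists made without the members. Of 9 further glycolytic genes found, 4 could be compared between night and day, 5 of 7 further carriers and cofactors of lactate and pyruvate, 7 of 8 further genes of pyruvate dehydrogenase, all 10 further genes of the citric acid cycle and 3 of 8 further glucose carriers. In each of these lists 0 genes were 2-fold higher by night and 0 lower on the FPKM + 1 scale. Over all genes compared the shares were 4.18% and 2.11%, so counts of 0 in lists this short are not a result about them. In plain FPKM the glucose carrier Slc2a6, named after its values were seen, was at 4.83 by day and 1.95 by night (ratio 0.404 [0.176 to 0.797]). Against the mixed tissues by day 2.29% of all genes compared were 4-fold higher and 13.2% were 4-fold lower. In the 4 lists outside glycolysis 0 genes were 4-fold higher, and 3 were 4-fold lower. These were Brp44l, a subunit of the mitochondrial pyruvate carrier now called Mpc1 (18.5 FPKM by day and 89.9 in the mixed pool), Suclg2, a subunit of succinyl-CoA ligase (5.45 and 39.3), and Slc2a2, the liver glucose carrier (0.0394 and 10.5).

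Bsg, the partner that brings MCT1 and MCT4 to the membrane, was among the highest genes of these lists. It was at 396 FPKM by day, 343 by night and 277 in the mixed tissues. Its night over day ratio was 0.866 [0.818 to 0.917], lower by night, where Slc16a1 was higher. Of the succinate dehydrogenase subunits, Sdha was at 104 FPKM by day, 90.1 by night and 119.6 in the mixed pool, and Sdhb at 104, 95.5 and 111. The further cycle genes had a median log2 ratio of -0.19 for night over day, and 9 of the 10 had lower values by night. Over all genes the median was -0.11, and 6076 of 9826 had lower values by night.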

How the data were processed

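FPKM values were computed by the authors and deposited per RefSeq transcript, per the file headers. TopHat 1.3.1, Cufflinks 1.2.0 and build rn4 are named in the submitters' processing notes. Options, and how reads with several matches were handled, are not stated in the sources used here. Per the labels' protocols, 10 µg of total RNA was poly(A)-selected and read as pairs of 51 bases after 15 PCR cycles.

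Entries of one symbol were summed (17089 entries, 16629 genes and regions), and starts are given counted from 1. Ratios used a pseudocount of 1 and a filter of 1 FPKM in 1 of the 2 libraries. No test was run, with 1 library per group. A gene was called at 2-fold between night and day and at 4-fold against the mixed tissues. The set, the 10 pathway lists, the 11 marker lists and the alternatives were chosen with earlier results of these data known. All members may be named. Of other lists, those past these folds and the 2 highest may be named, and up to 3 markers each. The comparison of the further glycolytic genes with the mixed tissues is not reported here.

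Depth was estimated from the smallest values above 0 among 1310 single-exon receptor models of 800 to 1100 bp. It came to 8.75 fragments per kb at 1 FPKM by day (20 models), 5.29 by night (4 models, so weakly known) and 9.58 in the mixed tissues (21 models). At 20 FPKM a 1 kb transcript has 95% Poisson bounds of 17.1 to 23.2, 16.4 to 24.2 and 17.3 to 23.1. Intervals of ratios are exact conditional binomial (Clopper-Pearson) intervals on these fragments. They cover counting error only, and PCR copies make them too narrow. Counts and intervals were tested on simulated counts drawn with these same estimated depths and counting error alone. That run therefore could not check the depths, PCR copies or reads with several matches. Python 3.11.15, pandas 2.3.3 and SciPy 1.17.1 were used.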

Additional observations from a re-analysis of the deposited data

How the results depend on the processing

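The gene at least 2-fold higher by night remained Slc16a1 under all 7 alternatives. These were pseudocounts of 0.1 and 5, a filter at 5 FPKM, no filter, libraries centred on their median ratio, the highest entry of a symbol, and, chosen after seeing the data, leaving out the 8 genes with 5 or more named copies. The ratio of Slc16a1 itself could move only with the pseudocounts and the centring, and was fixed under the others. Genes at least 2-fold lower by night numbered 1, but 2 with a pseudocount of 0.1 (Hk2 and Pdk4) and 0 with a pseudocount of 5, which pulls all ratios toward 0. The median night over day ratio of the set turned from -0.0231 to 0.0868 with the libraries centred, a shift of 0.11. A pseudocount of 5 left 5 genes 4-fold below the mixed tissues by day and 6 by night in place of 11 each. With the highest entry alone, upper glycolysis held 0.243%, 0.238% and 0.364% of all FPKM (day, night, mixed) in place of 0.254%, 0.25% and 0.398%, and PFKFB genes 0.01%, 0.0088% and 0.0069% in place of 0.0182%, 0.0138% and 0.0091%. Aldoa then held 79.2%, 70.5% and 35.3% of aldolase FPKM and Pfkfb2 83.4%, 84.2% and 27.8% of its family. The highest entry was taken in each library on its own. It was a different entry in each library for Pfkfb2, and differed between gland and pool for Aldoa. Of 749 recomputed ratios of single genes, 649 stayed within the counting interval and 100 moved beyond it, and no called ratio changed sign. A filter cannot change the ratio of a gene it keeps, and the highest entry can change only the 3 genes with several entries. Many of the 649 were thus fixed in advance. Some small ratios that were not called did change sign with the libraries centred. Examples are Mdh1 for night over day (log2 -0.0766 to 0.0333) and Gpi for day over mixed (-0.2675 to 0.0055). No paired analysis was possible because each group had 1 library and no test was run. Depth limits genes under about 1 FPKM, and the night library was the shallowest.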

Other observations

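Neighbouring paths of sugar metabolism were also described. Folds in counts are on the FPKM + 1 scale. In glycogen metabolism 0 of the 9 genes compared were 2-fold apart between night and day. Over all genes compared 4.18% were 2-fold higher by night and 2.11% lower. Pgm1, phosphoglucomutase, which links glucose 6-phosphate to glycogen and sugar nucleotides, was at 168 FPKM by day, 168.5 by night and 42.9 in the mixed tissues. Ugp2, which makes UDP-glucose, was at 56.4 FPKM by day, 102 by night and 45.8 in the mixed tissues, a night over day ratio of 1.81 [1.6 to 2.05]. Pygm, the muscle glycogen phosphorylase, was at 26.0, 20.3 and 148 FPKM, and Pygl, the liver form, at 0.674, 0.437 and 9.12. In the pentose phosphate path Taldo1, transaldolase, was at 154 FPKM by day, 148 by night and 63.2 in the mixed tissues, and Tkt, transketolase, at 87.4, 78.5 and 75.8. The gluconeogenic genes Pck1, Fbp1, Fbp2 and G6pc read under 0.3 FPKM in both pineal libraries, and 36.0, 52.1, 7.08 and 19.8 in the mixed tissues.

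Of 9 genes of NADH shuttles and malic enzymes, 3 were above the mixed tissues by day (Got1, Got2 and Me2) and 6 below, with a median log2 ratio of -0.38. Over all genes compared 7380 of 11934 were below, and the median was -0.27. Slc25a1, the citrate carrier, Gpd1 and Me3 were at least 4-fold lower, as were 13.2% of all genes compared. Got1, the cytosolic aspartate aminotransferase of the malate-aspartate shuttle, was at 208 FPKM by day, 195 by night and 108 in the mixed tissues, and its mitochondrial partner Got2 at 118, 106 and 76.9. Me2, a mitochondrial malic enzyme, was at 60.9, 85.3 and 16.1 FPKM. On the FPKM + 1 scale it was the 1 gene of this list 4-fold above the mixed tissues, by night (log2 2.33). Of all genes compared by night, 3.09% were 4-fold above the pool. Gpd1, of the glycerol phosphate shuttle, was at 0.852, 0.598 and 49.8 FPKM. Among 13 compared genes of hypoxia and glucose sensing, Ndrg1 was the 1 at least 2-fold apart between night and day on that scale, at 81.8 FPKM by day and 18.7 by night. Over all genes compared 2.11% were at least 2-fold lower by night and 4.18% higher. In plain FPKM Ppargc1a, named after its values were seen, was at 2.04 and 0.893 (ratio 0.437 [0.133 to 1.28]). Hif1a, the oxygen-regulated transcription factor, was at 86.9 FPKM by day, 113 by night and 32.3 in the mixed tissues.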
